A study of Mus musculus with 3 samples.

Results

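Endothelial nuclei selected on the genes Fam155a, Ccdc141, Syndig1 and Adamts19 made up 494 of 7645 endothelial nuclei in whole mouse hearts at embryonic day 9.5. They numbered 55 of 2244 endothelial nuclei in Ncx1-/- hearts, 199 of 2497 in Ncx1+/- hearts and 240 of 2904 in Ncx1+/+ hearts. Nuclei with at least 500 detected genes counted as endothelial when they held a UMI (unique molecular identifier, a single captured RNA molecule) in at least 4 of 11 endothelial genes. An endothelial nucleus was then chosen by the presence of a UMI in at least 2 of the 4 named genes, and in more of these than in any of 7 other sets of 4 genes. These nuclei are called members, and the remaining endothelial nuclei are called other endothelial nuclei. The study compared homozygous mutant, heterozygous and wild-type hearts for Ncx1, the alias of Slc8a1, which encodes a sodium-calcium exchanger of cardiac muscle. For each genotype, nuclei from 5 pooled, flash-frozen hearts passed a flow cytometry quality sort before a single 10x Genomics version 3.1 library was made. With 1 library per genotype, no difference between genotypes has a replicate check, so no p-value is given, and all intervals are exact 95% counting intervals that cover counting error only.

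The endocardium is the endothelial layer that lines the heart chambers. It signals to the muscle beneath it, above all through neuregulin 1 (Nrg1), which activates ErbB receptors on cardiomyocytes and is required for trabeculation, and it supplies the cells that invade the cushions from which valves form. Hearts that lack Ncx1 do not beat normally, so their endocardium is exposed to little or no blood flow. Of the 4 selection genes, Fam155a encodes an accessory subunit of the sodium leak channel NALCN. Ccdc141 encodes a coiled-coil protein of the cytoskeleton that is abundant in heart muscle, and Syndig1 encodes a membrane protein first described at excitatory synapses. Adamts19 encodes a secreted metalloprotease, and loss of this gene causes valve disease in humans and mice.

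Promoter sequences show which letters lie in front of genes that were high together in the members. Windows from 250 bases before to 50 bases after the start, 5′ to 3′ on the strand of the gene, are shown for the selection genes Ccdc141 and Syndig1 and for Heg1, a gene outside the selection. They come from RefSeq on build GRCm38.p6, and capitals mark matches on either strand to CCACCC, the letters bound by KLF factors, or to AGATAA, the letters bound by GATA factors. The windows are chr2:77170586-77170885 (minus strand) for Ccdc141, chr2:149830533-149830832 (plus strand) for Syndig1 and chr16:33684216-33684515 (plus strand) for Heg1.
Ccdc141: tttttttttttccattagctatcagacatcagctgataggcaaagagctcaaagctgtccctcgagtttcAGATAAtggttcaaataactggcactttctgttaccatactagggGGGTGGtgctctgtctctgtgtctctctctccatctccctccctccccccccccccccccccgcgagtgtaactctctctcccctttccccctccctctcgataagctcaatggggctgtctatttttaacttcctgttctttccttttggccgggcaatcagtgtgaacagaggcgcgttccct
Syndig1: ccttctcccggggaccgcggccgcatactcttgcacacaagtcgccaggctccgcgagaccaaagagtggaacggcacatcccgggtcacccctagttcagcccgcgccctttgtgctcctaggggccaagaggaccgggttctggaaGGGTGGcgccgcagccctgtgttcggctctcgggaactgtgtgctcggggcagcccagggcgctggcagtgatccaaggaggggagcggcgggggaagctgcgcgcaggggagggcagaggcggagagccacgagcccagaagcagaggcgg
Heg1: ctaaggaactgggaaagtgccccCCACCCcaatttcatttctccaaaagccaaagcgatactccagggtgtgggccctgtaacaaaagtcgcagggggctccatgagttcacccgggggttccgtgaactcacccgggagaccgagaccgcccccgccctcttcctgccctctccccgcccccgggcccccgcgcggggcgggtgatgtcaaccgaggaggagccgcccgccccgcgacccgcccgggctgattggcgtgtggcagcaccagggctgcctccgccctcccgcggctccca
Each window shown held a single match to CCACCC, and the window of Ccdc141 also held a match to AGATAA that did not overlap it. Windows of Wnt4, Ccser1 and Rbm47, which were also higher in members, held no CCACCC. Of 170 promoter windows of 119 genes that were higher in members (defined below), 41.2% held CCACCC, against 31.5% of all 32851 windows of this length. The matching shares were 12.9% against 11.2% for AGATAA, 6.47% against 5.91% for the hypoxia-factor letters ACGTGC, and 20.0% against 21.4% for the NFAT letters TGGAAA. These shares describe letters in a window and say nothing of binding.

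The 3 libraries held 12525, 12563 and 13805 barcodes in Ncx1-/-, Ncx1+/- and Ncx1+/+ and 49022310 to 59898298 UMIs each. Between 40 and 57 barcodes were shared by each pair of libraries, and none of these was a member in both libraries of the pair. Members were somewhat deeper than other endothelial nuclei: the median was 5968 UMIs in Ncx1-/-, 5710 in Ncx1+/- and 6038.5 in Ncx1+/+ members, against 4369, 4473.5 and 5226.5 in other endothelial nuclei. Doublet scores in the top 8% of a library marked 29.1% of Ncx1-/-, 19.6% of Ncx1+/- and 16.3% of Ncx1+/+ members, against 21.5%, 15.8% and 17.2% of other endothelial nuclei. The nuclear RNA Malat1 took 6.83% of UMIs in Ncx1-/- members, against 3.26% and 3.06% in Ncx1+/- and Ncx1+/+ members. It took 5.47%, 2.92% and 2.77% in other endothelial nuclei and 9.45%, 5.79% and 5.63% in cardiomyocyte-type nuclei. The higher Ncx1-/- share was thus not particular to members. Slc8a1, the targeted gene, was at 630 CPM (counts per 1000000 UMIs) in Ncx1-/- members, 1259 in Ncx1+/- members and 2621 in Ncx1+/+ members. The order of these 3 levels is that of the labelled gene doses, and cardiomyocyte-type nuclei held 1266 CPM in Ncx1-/- and 16625 CPM in Ncx1+/+. Which exons the mutant allele lacks was not used here, so a UMI in Ncx1-/- nuclei may come from the part that remains.

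Members were scarcer in Ncx1-/- hearts than in the other hearts. They formed 2.45% (1.85 to 3.18) of endothelial nuclei in Ncx1-/-, 7.97% (6.94 to 9.10) in Ncx1+/- and 8.26% (7.29 to 9.33) in Ncx1+/+. The interval of Ncx1-/- lay below the others, which overlapped. The share is a description of the selection genes, which differed between genotypes themselves, and fewer nuclei of a kind cannot be told apart from less RNA of these genes per nucleus. After each nucleus was thinned to 2000 UMIs, the shares were 1.30%, 5.28% and 7.39% of 1698, 1968 and 2259 nuclei that still passed as endothelial, so the order was kept at equal depth. With doublet-scored nuclei removed, they were 2.22%, 7.64% and 8.35%.

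**Figure D1:**
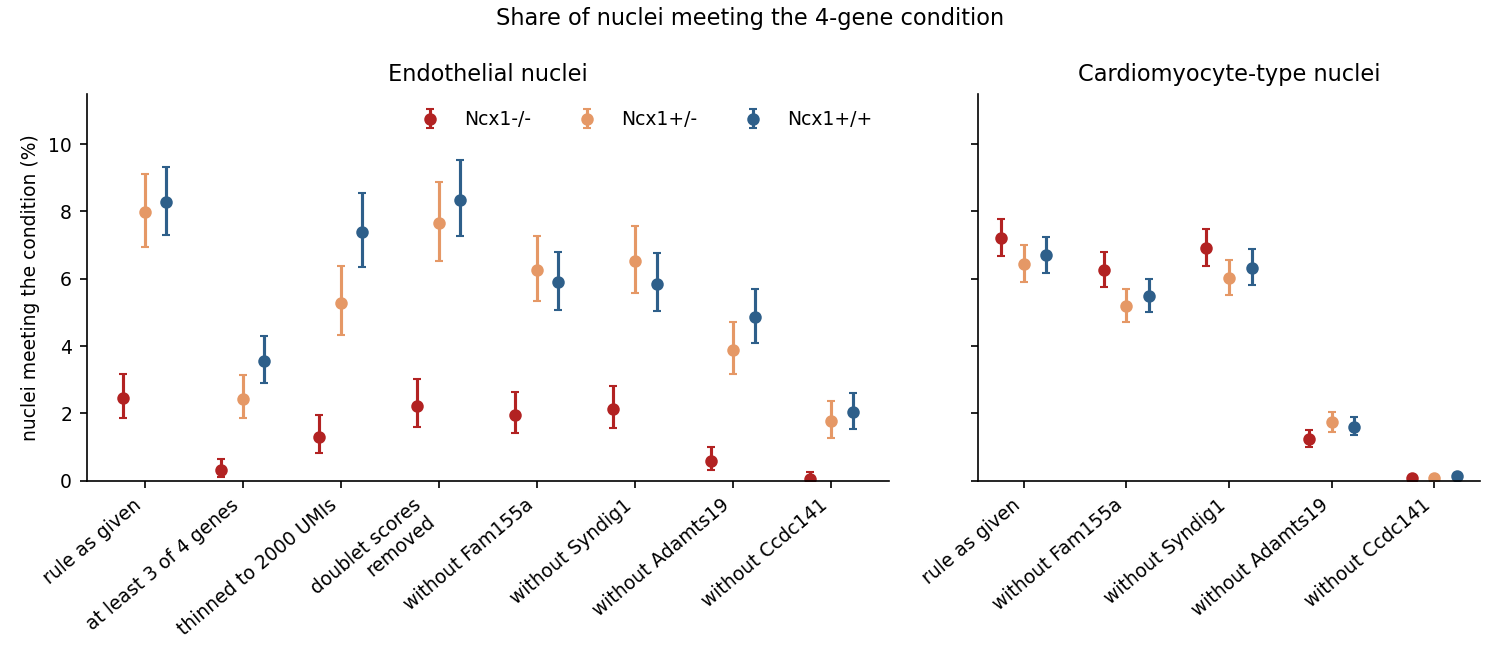
Share of endothelial nuclei (left) and of cardiomyocyte-type nuclei (right) that met the condition on the 4 selection genes, in percent, under 8 and 5 versions of the condition, for Ncx1-/-, Ncx1+/- and Ncx1+/+ libraries. Points are shares of nuclei and bars are exact 95% binomial intervals. In endothelial nuclei the Ncx1-/- point lies below both others in every version shown. In cardiomyocyte-type nuclei the 3 genotypes lie between 6.44% and 7.20% with the condition as given, and all fall to 0.129% or less once Ccdc141 is left out.

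Ccdc141 carried most of the selection, and it is a gene of heart muscle. The same condition on the sets was met by 7.20% of cardiomyocyte-type nuclei (at least 6 of 10 cardiomyocyte markers and at most 1 endothelial gene) in Ncx1-/-, 6.44% in Ncx1+/- and 6.70% in Ncx1+/+, which is above the Ncx1-/- endothelial share and close to the others. With Ccdc141 left out of the set, cardiomyocyte-type nuclei met it in 0.0927%, 0.0747% and 0.129%. Endothelial nuclei then met it in 0.0446% (1 nucleus; 0.00113 to 0.248) in Ncx1-/-, 1.76% (44 nuclei; 1.28 to 2.36) in Ncx1+/- and 2.03% (59 nuclei; 1.55 to 2.61) in Ncx1+/+. Without Ccdc141 the interval in Ncx1-/-, from 1 nucleus, thus held the cardiomyocyte-type shares, and the shares in Ncx1+/- and Ncx1+/+ were above them. Leaving out Adamts19 gave 0.579%, 3.88% and 4.86% of endothelial nuclei, leaving out Fam155a 1.96%, 6.25% and 5.89%, and leaving out Syndig1 2.14%, 6.53% and 5.85%.

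The 4 selection genes lie on 3 chromosomes. On build mm10, with the GENCODE M21 annotation, Fam155a spans chr8:9205902-9771161 (minus strand), Ccdc141 chr2:77009902-77170636 (minus strand), Syndig1 chr2:149829211-150004392 (plus strand) and Adamts19 chr18:58836667-59054060 (plus strand). Fam155a overlaps several predicted genes and Syndig1 overlaps C530025M09Rik on the opposite strand, so reads of these pairs could be split in counting. Nrg1 spans chr8:31814551-32884029 (minus strand).

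Fam155a marked a small number of nuclei with very many molecules. Its level in members was 45.8 CPM in Ncx1-/-, 516 in Ncx1+/- and 798 in Ncx1+/+. A UMI was present in 20.0% (10.4 to 33.0) of Ncx1-/- members, 34.7% (28.1 to 41.7) of Ncx1+/- members and 42.1% (35.8 to 48.6) of Ncx1+/+ members. The richest nucleus held 5 UMIs in Ncx1-/- and 93 in each of Ncx1+/- and Ncx1+/+, so no Ncx1-/- member held as many Fam155a molecules as the richest of the others. Over all endothelial nuclei, with no selection, a UMI was found in 1.47% in Ncx1-/-, 4.49% in Ncx1+/- and 5.65% in Ncx1+/+, beside 1.37%, 1.58% and 1.70% of cardiomyocyte-type nuclei, whose median depths were 3658.5, 3474 and 3832 UMIs. The Ncx1-/- share was therefore near the cardiomyocyte-type level, and whether either is background was not tested. Thinned to 2000 UMIs, the endothelial shares were 0.530%, 3.51% and 4.52%, against 0.737%, 1.01% and 0.925% of cardiomyocyte-type nuclei.

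Syndig1 had the same pattern at a lower level. Members held 22.9 CPM in Ncx1-/-, 95.1 in Ncx1+/- and 140 in Ncx1+/+, with a UMI in 14.5%, 34.2% and 50% of members. Over all endothelial nuclei the thinned shares with a UMI were 0.236%, 2.39% and 3.50%, against 0.221%, 0.367% and 0.25% of cardiomyocyte-type nuclei. The thinned Ncx1-/- share, from 4 of 1698 nuclei, was thus close to the cardiomyocyte-type share. Without thinning, Syndig1 was found in 0.758% (0.442 to 1.21) of Ncx1-/- endothelial nuclei and 0.417% (0.292 to 0.577) of Ncx1-/- cardiomyocyte-type nuclei. Their median depths were 4420 and 3658.5 UMIs. Adamts19 was less specific. Members held 219, 344 and 305 CPM, with a UMI in 78.2%, 65.8% and 57.1% of members. Thinned endothelial nuclei had a UMI of it in 2.53%, 4.52% and 5.31%, against 4.81%, 4.06% and 3.61% of cardiomyocyte-type nuclei. The Ncx1-/- share was below the cardiomyocyte-type share and the other shares were somewhat above it. Ccdc141 stood at 1673, 2343 and 2809 CPM in members and 770, 728 and 778 CPM in other endothelial nuclei, against 2373, 2286 and 2318 CPM in cardiomyocyte-type nuclei. A UMI of it was found in 51.6%, 51.9% and 56.0% of all endothelial nuclei, so its detection alone separates few nuclei.

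**Figure D2:**
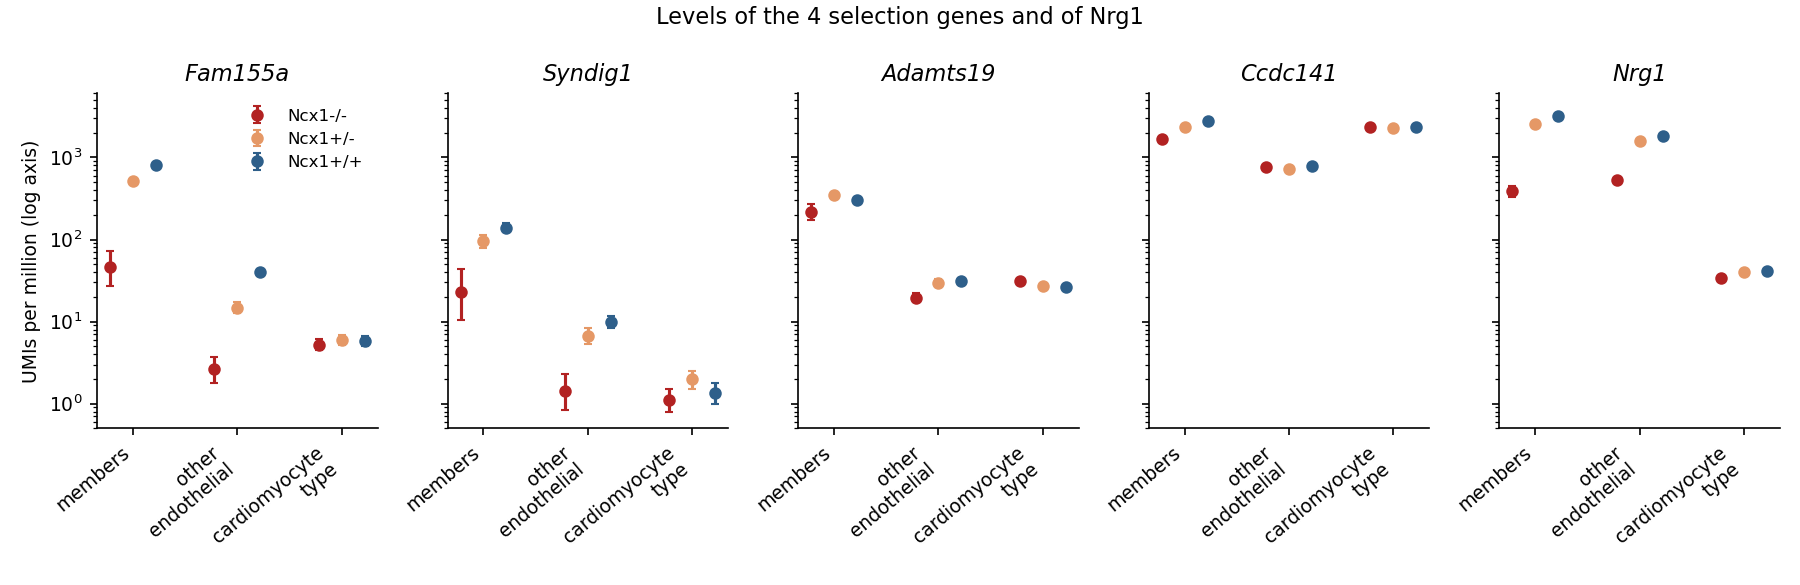
Levels of Fam155a, Syndig1, Adamts19, Ccdc141 and Nrg1 in CPM (log axis) in members, other endothelial nuclei and cardiomyocyte-type nuclei of the Ncx1-/-, Ncx1+/- and Ncx1+/+ libraries. Points are levels over the summed nuclei and bars are exact 95% Poisson intervals. Among members, Fam155a, Syndig1 and Nrg1 are lowest in Ncx1-/-, and Nrg1 in Ncx1-/- members (386 CPM) is below Ncx1-/- other endothelial nuclei (534 CPM).

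The pairs of genes that admitted a nucleus differed between genotypes. Ccdc141 with Adamts19 and neither of the others admitted 37 of 55 Ncx1-/- members (67.3%), 83 of 199 Ncx1+/- members (41.7%) and 56 of 240 Ncx1+/+ members (23.3%). Fam155a or Syndig1 was present in 18, 116 and 184 members. All 4 genes were present in 0, 5 and 11 members, and 3 of them in 7, 56 and 92. Because a member needs at least 2 of the 4 genes, those lacking Fam155a and Syndig1 must hold Ccdc141 and Adamts19, and this opposition within members comes from the rule.

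The name of the group was checked against cell type markers. All 10 genes of an endocardial identity list were detected in the members of every genotype, and their summed level was 5468, 10232 and 11359 CPM in Ncx1-/-, Ncx1+/- and Ncx1+/+ members, against 5601, 8014 and 8384 CPM in other endothelial nuclei. The sum was thus above other endothelial nuclei in Ncx1+/- and Ncx1+/+ only. All 10 cardiomyocyte markers were also detected, and their sum was 11568 CPM in Ncx1-/- members, 4567 in Ncx1+/- and 3791 in Ncx1+/+, against 7400, 4930 and 4312 CPM in other endothelial nuclei and 20812, 20308 and 19715 CPM in cardiomyocyte-type nuclei. Members therefore carried 55.6%, 22.5% and 19.2% of the cardiomyocyte-type level, and Ncx1-/- members carried 1.56 times (1.52 to 1.61) that of Ncx1-/- other endothelial nuclei. The median member of each genotype held 7519, 1261 and 1094 CPM of these markers. Whether heart muscle RNA placed nuclei in the Ncx1-/- group was not tested. The cardiomyocyte marker sum goes against the name for the 55 Ncx1-/- nuclei, and their identity sum was not above that of Ncx1-/- other endothelial nuclei. Their Fam155a and Syndig1 levels were below those of Ncx1+/- and Ncx1+/+ members. Beside Ncx1-/- other endothelial nuclei, however, Fam155a (45.8 against 2.63 CPM), Syndig1 (22.9 against 1.44 CPM) and Adamts19 (219 against 19.5 CPM) were all higher. The rule selects on each of these genes, so their excess is no check of the name. The 55 nuclei are named below by the selection only.

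Markers of other cell types were compared between the members and other endothelial nuclei. The cushion mesenchyme sum was 264, 461 and 475 CPM, against 293, 538 and 715 CPM in other endothelial nuclei, but 3 of its 10 genes belong to a competing set of the rule, which lowers it in members by choice. Of the 6 other genes measured, none passed the 1.5-fold threshold used below. Arterial markers summed to 399, 413 and 424 CPM, against 554, 507 and 489 CPM, and venous markers to 295, 259 and 282 CPM, against 485, 343 and 327 CPM. Vascular markers were thus lower in members. Epicardial markers were low in all but higher in members of Ncx1-/- and Ncx1+/-, with sums of 61.0, 22.1 and 9.08 CPM, against 24.4, 9.36 and 10.6 CPM in other endothelial nuclei (2.50 times, 1.58 to 3.80, in Ncx1-/- and 2.36 times, 1.49 to 3.63, in Ncx1+/-). Erythroid markers summed to 122, 389 and 317 CPM, against 175, 382 and 366 CPM. The haematopoietic markers Ptprc, Pf4 and Gp9 and the neural crest markers Sox10, Foxd3 and Sox2 were at 0 in the members of all genotypes, and these lists summed to 7.63, 9.01 and 15.1 CPM and 15.3, 9.01 and 4.84 CPM.

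Members with Fam155a or Syndig1 differed from those admitted by Ccdc141 and Adamts19 alone. Nrg1, the neuregulin ligand, was outside the 4-gene condition. It stood at 556, 3667 and 3803 CPM in Ncx1-/-, Ncx1+/- and Ncx1+/+ members with Fam155a or Syndig1, against 265, 893 and 1059 CPM in members without them. The ratios were 2.10 (1.5 to 2.95), 4.10 (3.71 to 4.55) and 3.59 (3.24 to 3.99). Heg1, a receptor of the cerebral cavernous malformation pathway that the heart wall needs to grow, stood at 403, 1119 and 1342 CPM with them and 339, 588 and 583 CPM without, and only the Ncx1+/- ratio of 1.90 (1.66 to 2.18) and the Ncx1+/+ ratio of 2.30 (2.0 to 2.67) excluded 1. Ccser1 had the widest gap of the genes shown, at 190 CPM against 26.1 CPM in Ncx1+/- (7.27 times, 4.11 to 14.0) and 384 CPM against 54.5 CPM in Ncx1+/+ (7.06 times, 4.52 to 11.7).

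Some further genes followed the same division in Ncx1+/- and Ncx1+/+, but Cemip, Slit2 and Tll1 went opposite ways in these libraries. Their ratios, with Fam155a or Syndig1 to without, were 0.501 (0.246 to 0.9996), 0.836 (0.762 to 0.917) and 0.407 (0.189 to 0.845) in Ncx1+/-. In Ncx1+/+ they were 5.29 (1.36 to 45.3), 1.62 (1.44 to 1.82) and 2.79 (1.01 to 10.7). Cemip and Tll1 rested on few counts. With and without, Cemip had 16 and 22 counts in Ncx1+/- and 37 and 2 in Ncx1+/+. Tll1 had 13 and 22 counts in Ncx1+/- and 39 and 4 in Ncx1+/+. The potassium channel gene Kcnc2 was at 241 CPM with Fam155a or Syndig1 and 70.3 CPM without in Ncx1+/-, and at 142 and 32.7 CPM in Ncx1+/+. The RNA-binding protein gene Rbm47 was at 147 and 40.2 CPM in Ncx1+/- and at 140 and 46.3 CPM in Ncx1+/+. Sulf1, whose product removes sulfate groups from heparan sulfate, was 1.51 times (1.26 to 1.81) higher with them in Ncx1+/- and 2.31 times (1.87 to 2.89) higher in Ncx1+/+. The flow-responsive transcription factor gene Klf2 was not uniform: it was lower with them in Ncx1-/- (0.523 times, 0.292 to 0.902), higher in Ncx1+/- (1.44 times, 1.13 to 1.85) and at 230 CPM with and 221 CPM without in Ncx1+/+ (1.04 times, 0.811 to 1.35). The muscle gene Tnnt2 was at 587, 228 and 168 CPM with Fam155a or Syndig1 and 566, 279 and 210 CPM without, so it was high in Ncx1-/- members of either kind.

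**Figure D3:**
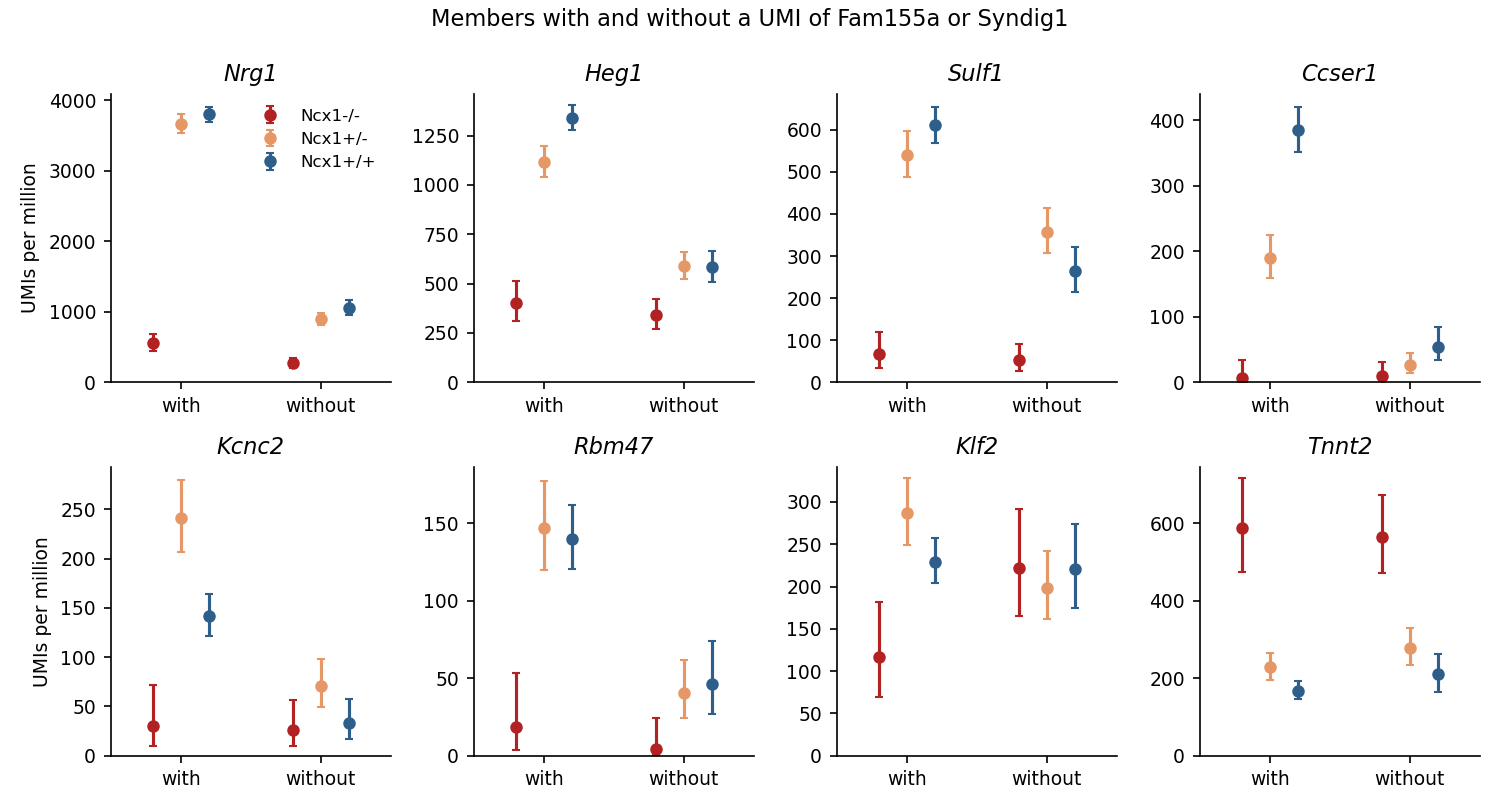
Levels of 8 genes in CPM in members with a UMI of Fam155a or Syndig1 and in members without, for Ncx1-/- (18 and 37 nuclei), Ncx1+/- (116 and 83) and Ncx1+/+ (184 and 56). Points are levels over the summed nuclei and bars exact 95% Poisson intervals. Nrg1, Ccser1, Kcnc2 and Rbm47 are at least 3.03 times higher with than without in Ncx1+/- and Ncx1+/+, whereas Tnnt2 is highest in Ncx1-/- on both sides.

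The link between Fam155a and Nrg1 was also read over all endothelial nuclei, members included. Among all endothelial nuclei, the 33, 112 and 164 nuclei with a Fam155a UMI held 383, 3794 and 4005 CPM of Nrg1 in Ncx1-/-, Ncx1+/- and Ncx1+/+, against 532, 1522 and 1776 CPM in nuclei without it. Heg1 stood at 263, 972 and 1209 CPM, against 286, 430 and 481 CPM. Both genes were thus higher beside Fam155a in Ncx1+/- and Ncx1+/+, and neither was in Ncx1-/-. Of the nuclei with Fam155a, 11, 69 and 101 were members. These members held 38, 2195 and 3564 of the 102, 2961 and 4869 Nrg1 UMIs found beside Fam155a. The values in Ncx1+/- and Ncx1+/+ thus come largely from the members and are not separate support for the link. Adamts19 went the other way for Nrg1, with 319, 960 and 1136 CPM in the 161, 261 and 350 nuclei with an Adamts19 UMI, against 554, 1774 and 2077 CPM in nuclei without. Sulf1 was higher beside Adamts19 in every genotype, at 74.0, 304 and 361 CPM against 43.9, 144 and 166 CPM. Nuclei with a UMI of either gene were deeper than those without: the medians were 7105, 6069.5 and 6362.5 UMIs with Fam155a and 4400, 4500 and 5240 without, and the part of depth in these differences was not tested.

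Values on either side of the threshold of the rule were set side by side, without a test. Members with exactly 2 selection genes held 442, 2329 and 3703 CPM of Nrg1 and 402, 766 and 1180 CPM of Heg1. Just outside, 32, 42 and 43 nuclei had 1 selection gene and no UMI in any other set. They held 572, 2457 and 1346 CPM of Nrg1 and 223, 634 and 520 CPM of Heg1. Nuclei with 1 selection gene and a gene of another set are not shown. The 75, 122 and 177 nuclei with 2 or more selection genes but a tie with another set held 308, 1256 and 1420 CPM of Nrg1 and 245, 528 and 590 CPM of Heg1. Heg1 was highest inside the threshold in each genotype, while Nrg1 was not in Ncx1-/- and Ncx1+/-.

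Genes beyond the 4 selection genes set the Ncx1+/- and Ncx1+/+ members apart from other endothelial nuclei. A gene passed the threshold when its level was at least 1.5 times higher, or lower, in both libraries and the counting interval of each ratio excluded 1. Of 11451 genes measured, 176 (1.54%) passed as higher in members and 174 (1.52%) as lower. All genes of the selection sets and the endothelial genes were left out. Scaling by TMM or median-of-ratios factors moved this split to 215 higher and 128 lower or 220 and 125, so 62.7% or 63.8% of calls were higher in place of 50.3%. These counts describe nuclei chosen on the same libraries and carry no test.

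The genes with the largest excess in members were led by Cemip, by the smaller of both ratios. This gene, whose product degrades hyaluronan, was at 31.1 CPM in Ncx1+/- and 23.6 CPM in Ncx1+/+ members, against 2.13 and 2.53 CPM in other endothelial nuclei, or 14.6 (8.60 to 25.3) and 9.33 (5.85 to 14.9) times higher. Adamts5, a protease that cleaves the cushion proteoglycan versican, was 3.92 and 3.87 times higher, and the fibrillar collagen gene Col24a1 11.6 and 6.07 times. Both act in the extracellular matrix, as does Sulf1 at 465 and 534 CPM in members and 135 and 161 CPM in other nuclei (3.44 and 3.32 times). Ccser1 was 4.20 and 6.24 times higher, Rbm47 4.21 and 4.84 times, Kcnc2 5.32 and 4.05 times, and Adam23, an ADAM family member without protease activity, 4.42 and 4.49 times. Dmgdh, a mitochondrial enzyme of choline breakdown, was 7.33 and 4.98 times higher, and the microtubule protein gene Map6 4.48 and 5.56 times. The adaptor gene Apba1 (3.89 and 4.28 times), the ubiquitin ligase gene Hecw1 (4.08 and 4.02 times) and Pkhd1l1 (5.39 and 3.76 times) completed the 12 highest.

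The genes lowest in members included membrane and matrix genes. Col23a1, a membrane collagen, was at 149 CPM in Ncx1+/- and 137 CPM in Ncx1+/+ members, against 618 and 659 CPM in other endothelial nuclei (0.241 and 0.208 times). Tll1, a tolloid protease needed for septation of the heart, was at 28.7 and 26.0 CPM, against 170 and 121 CPM (0.168 and 0.216 times). Susd4 (0.225 and 0.156 times), Lpcat2 (0.148 and 0.243 times) and Cacna1e, a calcium channel gene (0.245 and 0.184 times), were lower on few counts. The erythroid gene Slc4a1 had 0 counts in Ncx1-/- and Ncx1+/- members and 1 count in Ncx1+/+ members, and Hsd11b2 and the GTPase gene Gimap4 had at most 2 counts in members of any genotype.

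**Figure D4:**
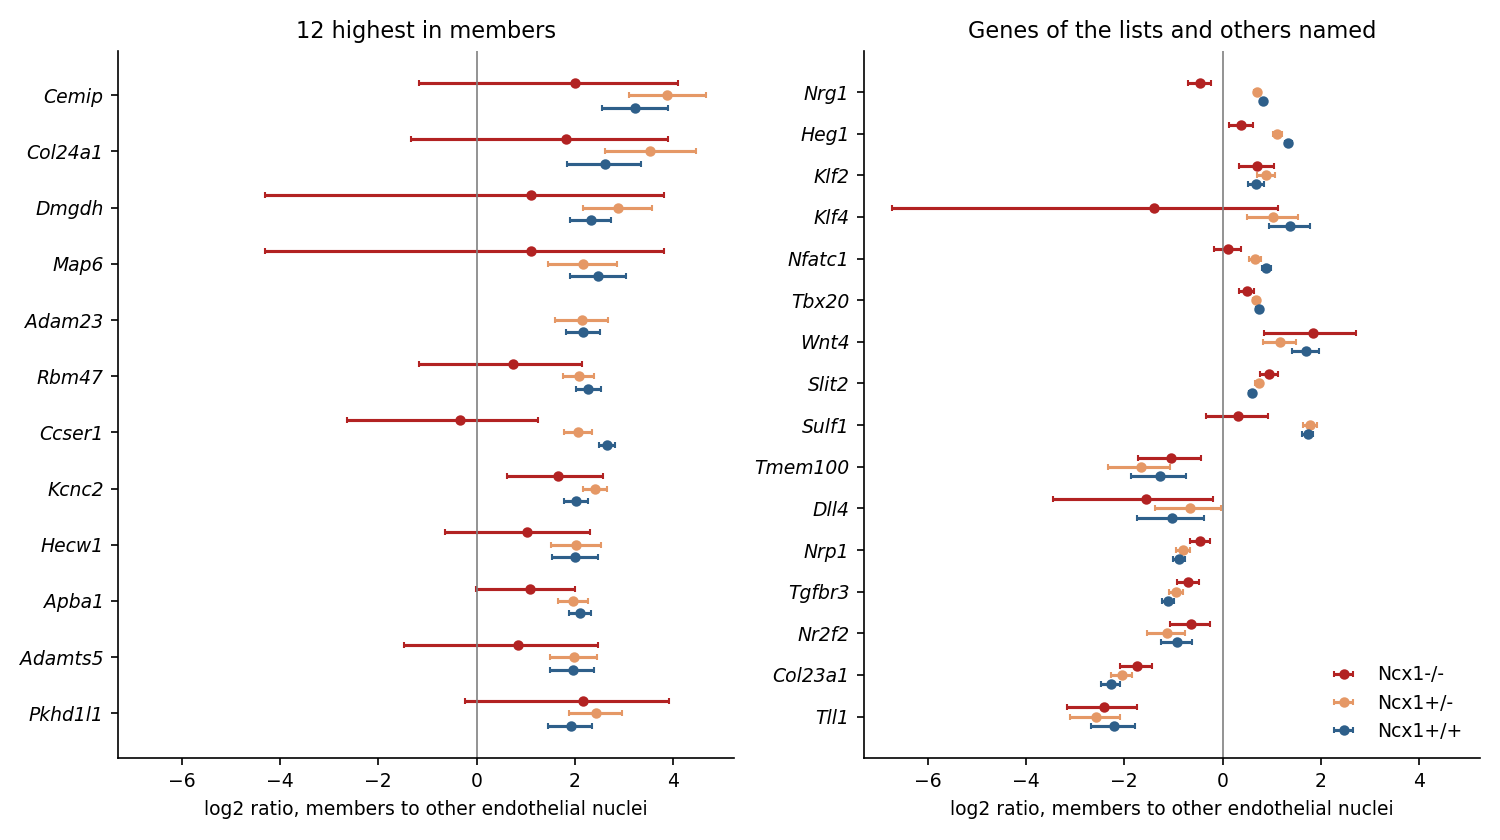
Log2 ratio of the level in members to that in other endothelial nuclei for the 12 genes highest in members (left) and for genes of the lists (right) in Ncx1-/-, Ncx1+/- and Ncx1+/+. Points are ratios and bars exact 95% intervals; Adam23 has no Ncx1-/- point because it had 0 counts there. Ncx1+/- and Ncx1+/+ points lie side by side, and Nrg1 lies above 0 in both (ratios of 1.62 and 1.77) and below 0 in Ncx1-/- (a ratio of 0.724).

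Gene groups fixed as lists were read against these background shares. Of the 10 endocardial identity genes, 2 passed as higher and 1 as lower: Nfatc1, a transcription factor of valve endocardium, at 597 and 762 CPM in Ncx1+/- and Ncx1+/+ members against 378 and 411 CPM (1.58 and 1.85 times), Tbx20, a T-box factor, at 1.60 and 1.66 times, and Tmem100, a target of BMP signalling in endothelium, at 0.314 and 0.411 times. The median log2 ratio of the list was 0.27 and 0.29, against -0.08 and -0.09 over all genes. Tbx20 is also a heart muscle gene, at 742 CPM in Ncx1-/- and 977 CPM in Ncx1+/+ cardiomyocyte-type nuclei. Of 9 measured neuregulin and ErbB genes, Nrg1 alone passed, at 2535 and 3193 CPM in members against 1568 and 1800 CPM in other endothelial nuclei (1.62 and 1.77 times).

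Of 19 measured flow-responsive genes, 3 passed as higher and 2 as lower. The higher genes were Heg1 (2.16 and 2.52 times), Klf2 (1.84 and 1.61 times) and Klf4 (2.04 and 2.59 times), both of which encode transcription factors that respond to shear stress. The lower genes were the arterial gap junction genes Gja4 (0.473 and 0.458 times) and Gja5 (0.396 and 0.424 times). Of 18 Notch genes, the target Hey2 was higher (2.0 and 1.64 times) and the ligand Dll4 lower (0.630 and 0.492 times). Of 7 measured arterial markers, the same Gja4, Gja5 and Dll4 were lower. Of 4 venous markers 2 were lower, Nr2f2, the venous fate regulator (0.455 and 0.525 times), and Flt4, a receptor for VEGF-C (0.357 and 0.437 times). Of 8 measured VEGF and Tie genes 3 were lower, Flt4, Dll4 and the co-receptor Nrp1, which stood at 404 and 386 CPM against 705 and 710 CPM.

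Of 17 measured Wnt genes, 4 were higher and 1 lower: the ligands Wnt4 (2.24 and 3.24 times) and Wnt11 (1.72 and 1.92 times), the pathway inhibitors Apcdd1 (2.11 and 3.52 times) and Nkd1 (1.60 and 2.39 times), and the receptor Fzd4 (0.414 and 0.571 times). The median log2 ratio of the list was 0.05 and -0.07, against -0.08 and -0.09 over all genes. Of 25 BMP and TGF-beta genes, the ligand Bmp2, which starts cushion formation, was higher at 25.4 and 30.3 CPM against 15.7 and 15.7 CPM (1.61 and 1.93 times). The co-receptor Tgfbr3 (0.519 and 0.463 times) and the receptor Acvrl1 (0.293 and 0.154 times) were lower. Of 19 genes of the transition to cushion mesenchyme, Tgfbr3 was the 1 that passed. Of 14 ADAMTS and versican matrix genes 3 were higher, namely Adamts5, Adamts3 (2.11 and 1.74 times) and the hyaluronan receptor gene Cd44 (1.77 and 1.53 times). Of 23 axon guidance genes, Slit2 (1.66 and 1.52 times) and Sema6a (1.64 and 1.67 times) were higher, and Sema6d (0.617 and 0.549 times) and Nrp1 were lower.

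Several lists showed no difference past the threshold. None of 25 cilia genes, 28 cell cycle genes or 12 mitochondrial genes passed in either direction, and 1 of 29 hypoxia and glycolysis genes, Egln3, was lower. The NALCN channel itself could not be followed: of that list only Unc79 was measured and did not pass, and Nalcn and Unc80 had 0 UMIs in Ncx1-/- and Ncx1+/- members and were detected in Ncx1+/+ members on too few counts to be measured.

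Members were set beside nuclei chosen in the same way by 3 of the other gene sets of the rule. The set of Sema4d, Hs3st4, Kcnq1 and Col26a1 held 135, 217 and 283 nuclei, the set of Dkk2, Ano1, St6galnac5 and Pmepa1 held 0, 48 and 101, and the set of Slc24a4, Slc8a3, Epha7 and Il1r1 held 107, 158 and 275. Heg1 was at 902 CPM in Ncx1+/- and 1173 CPM in Ncx1+/+ members, against 460 and 507, 469 and 410, and 354 and 443 CPM in these sets in turn. Sulf1 was likewise at 465 and 534 CPM, against at most 135 CPM in Ncx1+/- and 167 CPM in Ncx1+/+ of any of them. Nrg1 did not separate members from the Slc24a4 set, which held 2764 and 2876 CPM. Slit2 was at 1521 and 1330 CPM in members and at 1589 and 1437 CPM in the Dkk2 set, and Tbx20 at 1871 and 2256 CPM against 1800 and 1979 CPM there. Col23a1, low in members, was also low in the Dkk2 set (211 and 141 CPM) and high in the Sema4d set (1269 and 1502 CPM).

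In Ncx1-/- hearts the same comparison called more genes, and most of those higher were genes of heart muscle nuclei. Members and other endothelial nuclei of Ncx1-/- differed by the same threshold in 487 genes higher (4.25% of 11451) and 468 lower (4.09%), and 32 of the 176 genes named from the other libraries (18.2%) were among the higher and 1 was lower. Of the 176, 44 lay below the level of Ncx1-/- other endothelial nuclei, so most went the same way without passing. Nrg1 was at 386 CPM in Ncx1-/- members and 534 CPM in Ncx1-/- other endothelial nuclei, a ratio of 0.724 (0.612 to 0.851). In the 16 Ncx1-/- members low in cardiomyocyte markers (described below), however, Nrg1 was at 1013 CPM. That level was above the 534 CPM, which comes from nuclei not limited in this way. Other endothelial nuclei under the same limit were not compared, so the ratio for those 16 is not known. Of the 487 higher genes, 341 (70.0%) were at least 1.5 times higher in cardiomyocyte-type than in other endothelial nuclei, against 19.2% of all genes measured. Of the 174 genes lower in members, 58 were lower in Ncx1-/- too and 2 were higher, with Tll1 at 45.8 CPM against 242 CPM and Col23a1 at 201 CPM against 674 CPM.

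The genes high in members were low in Ncx1-/- endothelium outside the members as well. These nuclei were not members in any genotype. Of 171 measured of the 176 genes, 70 (40.9%) fell in Ncx1-/- other endothelial nuclei against both other genotypes and 1 rose, beside 393 lower (3.24%) and 943 higher (7.78%) of all 12121 genes. The median log2 ratio of Ncx1-/- to Ncx1+/+ was -0.62, against 0.09 over all genes, and 148 of the 171 lay below Ncx1+/+. Nrg1 fell to 534 CPM in these Ncx1-/- nuclei, against 1568 and 1800 CPM in Ncx1+/- and Ncx1+/+, and Sulf1 fell to 46.7 CPM, against 135 and 161 CPM. The 174 genes lower in members did not move one way, with 19 higher and 17 lower. The 176 genes were chosen on the Ncx1+/- and Ncx1+/+ libraries that also serve as the comparison here, so their direction is not independent of the choice.

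**Figure D5:**
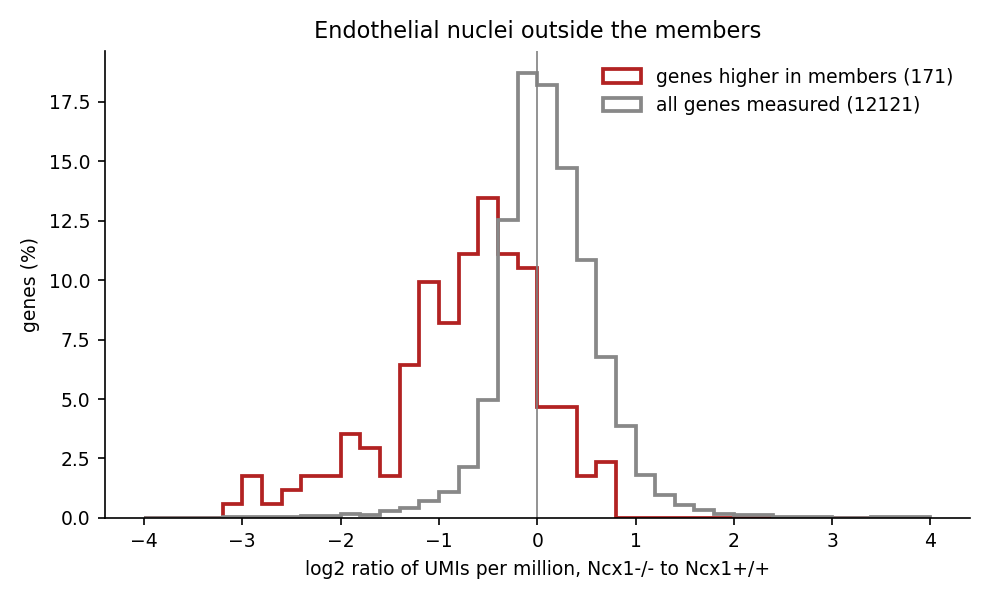
Distribution of the log2 ratio of CPM, Ncx1-/- to Ncx1+/+, in endothelial nuclei outside the members, for 171 measured genes higher in members and for all 12121 measured genes. The vertical axis is the percent of genes in each bin of the ratio. The curve of the genes higher in members sits to the left, with a median of -0.62 against 0.09.

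Within members, Ncx1-/- nuclei were high in heart muscle genes and low in the genes that set members apart elsewhere. Of 7820 genes measured, 707 (9.04%) rose in Ncx1-/- members and 617 (7.89%) fell. By TMM factors the counts were 551 higher and 821 lower and by median-of-ratios factors 558 and 815, so 40.2% or 40.6% of calls were higher in place of 53.4%, with the median gene moved to -0.12 or -0.13 on the log2 scale. Of the 707 higher genes, 436 (61.7%) were at least 1.5 times higher in cardiomyocyte-type than in other endothelial nuclei, against 13.6% of all genes measured, and of the 617 lower genes 3 (0.486%) were. Cardiomyocyte markers themselves rose in 9 of 10 cases, with a median log2 ratio to Ncx1+/+ of 1.67. The part of this marker level in each difference below was not tested.

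Neuregulin was among the genes that fell in Ncx1-/- members. Nrg1 was at 386 CPM in Ncx1-/- members, 2535 in Ncx1+/- and 3193 in Ncx1+/+, a ratio of 0.152 (0.129 to 0.179) to Ncx1+/- and 0.121 (0.102 to 0.142) to Ncx1+/+. Sulf1 was at 58.5, 465 and 534 CPM, and Ccser1 had 3 counts in Ncx1-/-, a ratio of 0.0245 (0.00504 to 0.0720) to Ncx1+/+. Nav3, a microtubule-binding protein gene, was at 488, 2634 and 2232 CPM. Samd5 was at 10.2, 155 and 160 CPM, the collagen gene Col3a1 at 7.63, 96.7 and 85.9 CPM, and Lrig1, which restrains ErbB receptors, at 25.4, 168 and 193 CPM. Adam23 had 0 counts in Ncx1-/- members. Of the 176 genes high in members, 164 were measured here, 90 (54.9%) fell and 1 rose, but these genes were chosen as high in the Ncx1+/- and Ncx1+/+ members they are compared with, so a fall is in part fixed by the choice.

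Endocardial and flow-responsive genes were among those that fell. Of 10 endocardial identity genes, 6 fell and Tmem100 rose, with a median log2 ratio to Ncx1+/+ of -0.75. In members low in cardiomyocyte markers (described below), 1 of 9 identity genes was lower, with a median of -0.19. Of 12 flow-responsive genes measured there, 1 was lower, but their median was -0.34, near the -0.36 of the 14 measured over all members. Most calls of both lists were thus lost there, where Ncx1-/- nuclei held 73016 UMIs, while the flow-responsive median hardly moved. Nfatc1 was at 295 CPM in Ncx1-/- members, 597 in Ncx1+/- and 762 in Ncx1+/+, and Tbx20 at 938, 1871 and 2256 CPM. Npr3, Hapln1, Foxp1 and Smad6 were the others. Of 14 flow-responsive genes, Klf4, Klf6, Ece1 and Heg1 fell and Gja4 rose; Klf4 had 1 count in Ncx1-/- members, a ratio of 0.0667 (0.00166 to 0.385) to Ncx1+/+. Klf2 stood at 178, 251 and 228 CPM and did not pass. Of 28 cell cycle genes, 4 fell (Mki67, Pcna, Pola1 and Smc4), of 14 genes of the transition to mesenchyme 5 fell and 3 rose, of 20 axon guidance genes 5 fell and 3 rose, and of 19 cilia genes none passed.

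Glycolysis genes rose together in Ncx1-/- members. Of 24 measured hypoxia and glycolysis genes, 20 rose and none fell, with a median log2 ratio to Ncx1+/+ of 1.62. The glucose transporter gene Slc2a1 was at 508 CPM in Ncx1-/- members, 147 in Ncx1+/- and 86.5 in Ncx1+/+, and the lactate dehydrogenase gene Ldha at 524, 204 and 146 CPM. The phosphofructokinase gene Pfkp was at 328, 78.7 and 70.2 CPM (4.67 times Ncx1+/+, 3.61 to 6.06), and Pgm2 at 272, 58.2 and 58.1 CPM. In other endothelial nuclei Slc2a1 stood at 392, 159 and 126 CPM and Ldha at 498, 241 and 181 CPM, so the order of genotypes was the same outside the members. Other genes high in Ncx1-/- members were Nav2 (531, 103 and 130 CPM), the fatty acid transporter gene Cd36 (94.1, 15.6 and 9.68 CPM), the muscle transcript Mhrt (196, 32.0 and 20.0 CPM) and Dpp6, a potassium channel subunit gene, at 508, 51.6 and 12.1 CPM and at 792 CPM in Ncx1-/- cardiomyocyte-type nuclei.

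The differences were read again in nuclei with few heart muscle molecules, a limit set after the marker levels were seen. Of the members, 16 Ncx1-/-, 146 Ncx1+/- and 180 Ncx1+/+ nuclei held at most 3605 CPM of cardiomyocyte markers, the upper quartile of Ncx1+/+ members. Of 5906 genes measured, 289 were then higher in Ncx1-/- and 213 lower. Nrg1 was at 1013 CPM in Ncx1-/-, 3325 in Ncx1+/- and 3758 in Ncx1+/+ nuclei (0.270 times Ncx1+/+, 0.211 to 0.339), and Sulf1 had 6 counts in Ncx1-/- (0.116 times, 0.0423 to 0.253). These genes stayed low. Nfatc1 was at 767 CPM in Ncx1-/- nuclei, 734 in Ncx1+/- and 930 in Ncx1+/+ (0.824 times, 0.618 to 1.08), so its interval no longer excluded 1. Of 19 measured hypoxia and glycolysis genes 12 were higher, with Slc2a1 at 6.80 times (3.43 to 12.9) and Ldha at 4.95 times (3.47 to 6.96) Ncx1+/+. Of 142 measured genes of the 176, 24 were lower and 1 was higher, and their median log2 ratio was -0.69, against 0.01 over all genes.

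Few genes passed the threshold between Ncx1+/- and Ncx1+/+ members. Of 7310 genes measured, 193 (2.64%) passed as higher and 147 (2.01%) as lower in Ncx1+/-, with 173 and 178 by TMM factors or 166 and 191 by median-of-ratios factors, so that the higher share of calls was 56.8%, 49.3% or 46.5%. Slc8a1 was 0.481 times (0.453 to 0.509) its Ncx1+/+ level. Of 24 hypoxia and glycolysis genes 4 were higher (Slc2a1, Pfkl, Pgam1 and Bnip3), and of 9 mitochondrial genes 6 were higher. The mitochondrial sum was also higher in Ncx1+/- than in Ncx1+/+ outside the members. It was at 674 against 411 CPM in other endothelial nuclei and 749 against 498 CPM in cardiomyocyte-type nuclei, so this difference was not particular to members. The Wnt agonist gene Rspo3 was at 72.1 CPM in Ncx1+/- and 32.7 CPM in Ncx1+/+ members, while Apcdd1 and Nkd1 were lower. Dpp6 was 4.27 times (2.54 to 7.45) higher, Rrad, an inhibitor of calcium channels, was at 33.6 against 10.9 CPM, the channel modulator gene Fgf14 at 60.6 against 24.2 CPM, and the growth factor gene Mdk at 161 against 91.4 CPM. Of the 193 higher genes, 57 (29.5%) were higher in cardiomyocyte-type than in other endothelial nuclei, against 12.3% of all measured.

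Genes lower in Ncx1+/- than in Ncx1+/+ members included some that were high in members. Reln, a secreted guidance protein gene, was at 6.56 CPM in Ncx1+/- and 36.3 CPM in Ncx1+/+ members, and Lsamp, a cell adhesion gene, at 13.9 against 56.3 CPM. Ccser1 was at 123 against 311 CPM, and Kcnq3, a potassium channel gene, at 66.4 against 149 CPM. Of the 176 genes high in members, 162 were measured, 16 (9.88%) were lower in Ncx1+/- and 1 higher, with a median log2 ratio of -0.13. Nrg1 was at 0.794 times (0.759 to 0.830) and Heg1 at 0.769 times (0.713 to 0.828) their Ncx1+/+ levels, short of the threshold. No endocardial identity gene passed, and Edn1 was the 1 of 13 measured flow-responsive genes that was lower.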

How the data were processed

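Single-nucleus RNA was sequenced from whole mouse hearts at embryonic day 9.5 in 3 libraries, 1 per Ncx1 genotype (Ncx1-/-, Ncx1+/- and Ncx1+/+), each from 5 pooled hearts. The authors deposited raw UMI counts for each gene in each barcode, as whole numbers. Cell Ranger 6.1.0 and build mm10 stand in the submitters' processing notes, while per the file headers the matrices were written by version 9.0.0. The sources used here do not say whether introns were counted. Of 27998 gene identifiers, 27645 (98.7%) matched GENCODE M21.

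Members were found by the rule in the opening of the report. The rule, members and gene lists were chosen with earlier results of these data known. For each class and library, the raw counts of its nuclei were added up and scaled to CPM. Ratios have exact conditional binomial intervals and shares Clopper-Pearson intervals, at 95%. Genes needed 100 counts over members and other endothelial nuclei of Ncx1+/- and Ncx1+/+, or 50 over the libraries compared within members. The threshold was 1.5-fold with each interval excluding 1. Genes of the rule were left out of counts and lists. With 1 library per genotype no test across libraries was run.

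The rule for names took the 12 highest and 8 lowest genes in members against other endothelial nuclei (by the smaller ratio), the 10 highest and 10 lowest in Ncx1+/- against Ncx1+/+ members and in Ncx1-/- members against both (by the bound nearest 1), the rule genes, and list members past the threshold or the 2 with most counts. Rankings skipped predicted genes and those for ribosomal proteins, globins, mitochondrial RNA and sex-linked RNA. Genes with 0 counts get a floor of 3 counts in bounds. Not all genes the rule names are printed. Values of Slc2a1, Ldha and Tnnt2 were added after they were seen.

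Doublets were scored with Scrublet and the top 8% of a library removed as an alternative only, as were a mitochondrial limit of 5%, a minimum of 1000 genes and TMM (edgeR 4.0.16) or median-of-ratios (DESeq2 1.42.0) scaling. Python 3.11.15, numpy 2.4.6, scipy 1.17.1, pandas 2.3.3, scanpy 1.11.5 and matplotlib 3.10.9 were used.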

Additional observations from a re-analysis of the deposited data

Results flagged for a closer look

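Genes were singled out where members and other endothelial nuclei differed in opposite directions in Ncx1-/- and in both other genotypes, with counting intervals that exclude 1 in each library. With 1 library per genotype, none of these differences was tested. Slc8a1 was 1.71 times as high in members as in other endothelial nuclei of Ncx1-/-, and 0.778 and 0.936 times in Ncx1+/- and Ncx1+/+. Ttn, the heart muscle titin gene, was 1.58 times in Ncx1-/- and 0.907 and 0.825 times in the others, beside cardiomyocyte marker sums of 11568 CPM in Ncx1-/- members and 4567 and 3791 CPM in Ncx1+/- and Ncx1+/+ members. Nrg1 was 0.724 times in Ncx1-/- and 1.62 and 1.77 times in the others. The 16 Ncx1-/- members low in cardiomyocyte markers held 1013 CPM of Nrg1, above the 534 CPM of all Ncx1-/- other endothelial nuclei. The 534 CPM comes from nuclei not limited in this way, so these values do not show whether Nrg1 was reversed in those 16. The part of heart muscle RNA in the reversal was not tested. Nav3 was 0.583 times in Ncx1-/- and 1.47 and 1.25 times in the others.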

How the results depend on the processing

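The Ncx1-/- share stayed lowest of the 3 under every version of the rule that was run. The member shares in Ncx1-/-, Ncx1+/- and Ncx1+/+ were 0.312%, 2.44% and 3.55% with at least 3 selection genes, 5.79%, 12.9% and 14.4% with ties kept, and 7.13%, 13.7% and 16.6% with no condition on the other sets. They were 1.96%, 6.25% and 5.89% without Fam155a, 0.0446%, 1.76% and 2.03% without Ccdc141, 2.14%, 6.53% and 5.85% without Syndig1, 0.579%, 3.88% and 4.86% without Adamts19, and 1.30%, 5.28% and 7.39% thinned to 2000 UMIs. At a 2-fold threshold, 84 genes were higher and 72 lower in members than in other endothelial nuclei, 33 and 37 in Ncx1+/- than in Ncx1+/+ members, and 381 and 308 in Ncx1-/- than in both other members. At 4 times the count minimum, 22 and 32 differed in Ncx1+/- members and 306 were higher and 490 lower in Ncx1-/- members, and with no minimum 349 were higher in Ncx1+/- members. With at least 3 selection genes, 313 were higher and 507 lower in Ncx1-/- members. Under these settings 38.4% and 38.2% of the Ncx1-/- calls were higher, against 53.4%, so the balance turned. In members low in cardiomyocyte markers 289 were higher and 213 lower. With doublets removed, 2 in place of 1 of the genes high in members were higher in Ncx1-/- other endothelial nuclei. For 108 named genes under 11 settings, 1142 log2 ratios were recomputed, and none that had passed changed sign. Of these, 861 kept their side of the threshold and lay within the original counting interval, 157 no longer passed, 121 kept their side but lay outside that interval and 3 newly passed; the cause was not tested. Without Ccdc141, 1 Ncx1-/- nucleus remained, so its genes were not compared. The versions without Ccdc141, with 6 endothelial genes and with low cardiomyocyte markers were chosen after seeing the data. With 55 Ncx1-/- members, 393402 UMIs limit that comparison. No paired analysis was possible because each genotype has 1 library.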
